A study of Mus musculus with 32 samples.

Results

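The genes of serine synthesis and folate one-carbon metabolism were followed in FE1 cells, a mouse lung line, exposed to hydrazine. The 10 members were taken by enzyme role, with earlier results of these data known, and all 10 were found among the 49585 entries of the gene table. They form 3 groups: Phgdh, Psat1 and Psph of serine synthesis, Shmt1, Mthfd1 and Aldh1l1 of the cytosolic folate branch, and Shmt2, Mthfd1l, Mthfd2 and Aldh1l2 of the mitochondrial branch. FE1 is a line derived from the lung of the MutaMouse strain. The groups were vehicle (0 mM hydrazine) and 1, 4, 6 and 10 mM hydrazine for 4 h, and the same 5 doses for 4 h followed by 20 h without the compound, here called washout. Each group had 3 libraries, apart from 4 mM at 4 h, which had 5, for 32 libraries in all. RNA was measured by poly-A selected, stranded sequencing, and the values are gene-level expected counts. Nothing in the labels ties a replicate to a culture of its own, so p-values speak only of how these libraries vary, and that variation could be technical.

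Serine is made from the glycolytic intermediate 3-phosphoglycerate by the enzymes of Phgdh, Psat1 and Psph, in that order. Serine hydroxymethyltransferase then passes a carbon of serine to tetrahydrofolate, giving glycine, through Shmt1 in the cytosol and Shmt2 in mitochondria. In mitochondria the carbon is carried on to formate by the products of Mthfd2 and Mthfd1l, in the cytosol formate is taken up again by the enzyme of Mthfd1 for purine and thymidylate synthesis, and Aldh1l1 and Aldh1l2 encode the enzymes that burn 10-formyl-tetrahydrofolate to carbon dioxide in each compartment. Several of these genes are known targets of ATF4, a transcription factor of the integrated stress response.

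Library totals ran from 10560942 to 17086721 expected counts, and 13258 genes were tested, the 10 members among them. The cells carry the label of lung epithelium, but of 12 epithelial markers only Krt7 passed the filter on low counts, the summed level of all 12 was 0.681 to 3.01 CPM per library (a count scaled by the library's total and its TMM factor), and Cldn4, Nkx2-1 and Sftpc were at 0 in every library. All 10 mesenchymal markers passed, with summed levels of 20140 to 26020 CPM. At 4 h that sum was 24830 to 26020 CPM at 10 mM, against 20160 to 21720 CPM in the vehicle, and its part in the results below was not tested. Of the leukocyte markers 1 of 6 passed (0.982 to 4.22 CPM summed, 2.99 to 4.22 at 10 mM for 4 h against 1.62 to 2.42 in its vehicle) and of the endothelial markers 0 of 5 (0 to 0.683 CPM). The library farthest from its group mean was replicate c of 6 mM after washout (root mean square log2 distance 0.391, against 0.208 to 0.288 in the others), and results that turn on it are given with and without it. In bulk RNA, fewer cells of a type and less RNA per cell cannot be told apart.

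Per length of exon, the RNA of the mitochondrial Shmt2 and Aldh1l2 stood far above that of their cytosolic counterparts Shmt1 and Aldh1l1, while the cytosolic Mthfd1 stood above the mitochondrial Mthfd2 and Mthfd1l. In the vehicle at 4 h, Phgdh stood at 153 ± 3.69 CPM per kb of exon, Psat1 at 127 ± 0.801 and Shmt2 at 116.5 ± 5.74 CPM per kb (SD, n = 3). With the longest transcript as the length, Psat1 (207 ± 1.30 CPM per kb) stood above Phgdh (201 ± 4.84 CPM per kb), so the order of this pair depends on the length used. Below them came Mthfd1 at 59.1 ± 0.230, Mthfd2 at 29.6 ± 3.29, Mthfd1l at 24.2 ± 0.546, Aldh1l2 at 18.1 ± 0.579 and Psph at 11.5 ± 0.171 CPM per kb. Shmt1, at 0.570 ± 0.10 CPM per kb, and Aldh1l1, at 0, were the lowest. Neighbours in this order were farther apart than the sum of their SDs. At 4 mM Mthfd2 reached 52.2 ± 2.95 and Aldh1l2 33.3 ± 1.95 CPM per kb (SD, n = 5), which put Aldh1l2 above Mthfd1l at 26.6 ± 0.407 CPM per kb. Psat1 and Shmt2, at 138.7 ± 4.81 and 138.7 ± 2.54 CPM per kb, could not be ordered at that dose.

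**Figure D1:**
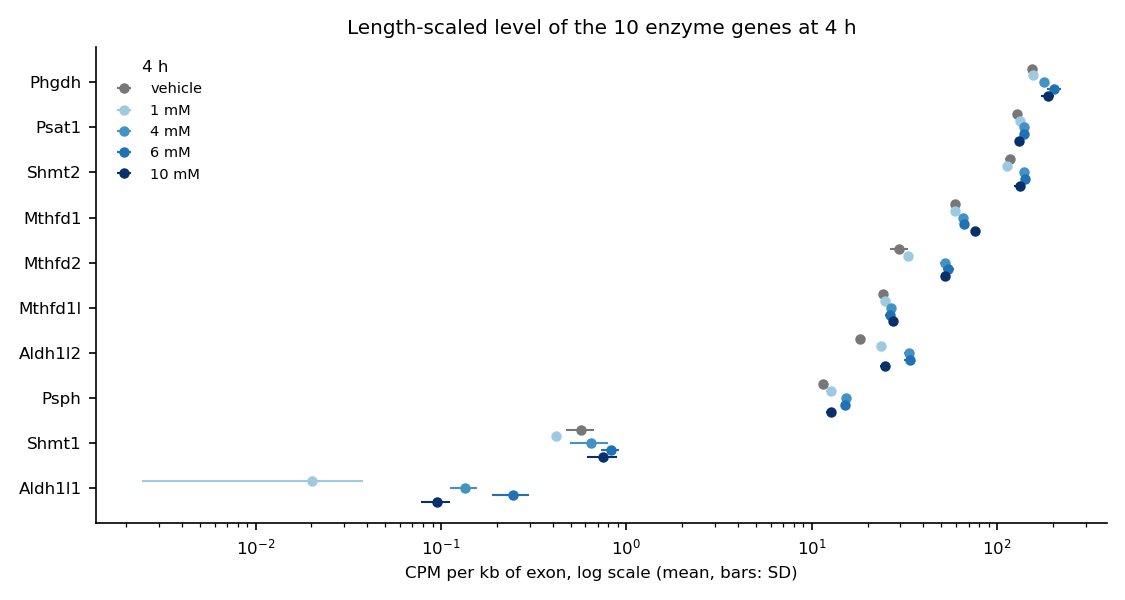
Mean CPM per kb of exon (log scale, bars are SD) of the 10 genes at 4 h, from the vehicle at the top of each row to 10 mM at the bottom (n = 3, 5 at 4 mM). Shmt1 and Aldh1l1 sit far left of the other 8 genes, and the vehicle value of Aldh1l1 is 0 and cannot be drawn on a log axis. With bars apart, Mthfd2 lies to the right of its vehicle from 4 mM on and Aldh1l2 from 1 mM on.

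Promoter sequence was compared because most members moved together at 4 h. RefSeq promoters (GRCm38.p6), from 250 bases before to 50 after a start site, were at hand for 9 of the 10 members, Aldh1l2 being the exception, and were searched on both strands for 3 motifs. The CCAAT box, read as CCAAT or its reverse complement ATTGG, was found in 7 of the 9 members with an entry, against 41.1% of all 27025 symbols with a promoter. Shmt2 and Mthfd1l had none, and Psat1, with a second RefSeq promoter at chr19:15924573-15924872 that holds no box, is counted by the promoter that does. The C/EBP-ATF element TGATGNAA, through which ATF4 is known to act, was found in 0 of the 9 members and in 4.5% of all symbols, and the E-box CACGTG in 0 of the 9 and in 8.1%. With only 9 members, 0 cannot be told apart from shares this small. All symbols include genes that were not tested here, and the share among tested genes was not computed. A match is a description of letters in these windows and is no evidence of binding. The 120 bases before the start are printed, on the strand of the gene, for the first 2 genes of serine synthesis, for the most changed mitochondrial gene with an entry, for its cytosolic paralog and for Shmt2, which lacks the box. Capitals mark CCAAT or ATTGG. The windows are chr3:98339970-98340089 (minus strand) for Phgdh, chr19:15925060-15925179 (minus) for the Psat1 promoter with the box, chr6:83317605-83317724 (minus) for Mthfd2, chr12:76255112-76255231 (plus) for Mthfd1 and chr10:127522445-127522564 (minus) for Shmt2. Those of Psat1 and Mthfd2 lie inside the span that GENCODE M21 gives the gene.
Phgdh: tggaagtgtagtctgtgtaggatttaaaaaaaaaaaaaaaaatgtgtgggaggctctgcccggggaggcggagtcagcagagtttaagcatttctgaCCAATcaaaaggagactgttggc
Psat1: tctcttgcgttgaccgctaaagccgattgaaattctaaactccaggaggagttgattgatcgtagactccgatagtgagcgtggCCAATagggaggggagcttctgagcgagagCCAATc
Mthfd2: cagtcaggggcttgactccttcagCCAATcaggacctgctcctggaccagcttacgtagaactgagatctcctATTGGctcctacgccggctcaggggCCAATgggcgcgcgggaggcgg
Mthfd1: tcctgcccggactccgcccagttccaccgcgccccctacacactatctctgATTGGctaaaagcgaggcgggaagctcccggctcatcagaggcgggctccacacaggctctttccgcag
Shmt2: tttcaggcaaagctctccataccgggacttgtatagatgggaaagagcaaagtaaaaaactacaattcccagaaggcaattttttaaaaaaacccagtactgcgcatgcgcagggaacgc

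Hydrazine raised most of these genes at 4 h, from 4 mM on. Aldh1l1, at 0 counts in the vehicle, is left out of the counts of calls and the medians and described by its counts and their ratios. At 1 mM, 0 of the other 9 members passed the threshold (edgeR's quasi-likelihood test, an adjusted p under 0.05 after Benjamini-Hochberg correction across every gene tested), where 9.84% of all genes did, 4.48% higher and 5.36% lower. At 1 mM 2 of the 9 had an unadjusted p under 0.05, both higher, and DESeq2 called 1, Aldh1l2. At 4 mM 8 of the 9 were higher and none lower, where 19.5% of all genes were higher, 19.1% lower and 38.6% called in either direction. At 6 mM 7 of the 9 were higher, against 20.3% of all genes (19.6% lower and 39.8% in either direction), and at 10 mM 6 were higher, against 26% of all genes (24.1% lower and 50.1% in either direction). At these 3 doses none of the 9 had an unadjusted p under 0.05 in the lower direction. The median log2 fold change of the 9 was 0.03, 0.23, 0.39 and 0.29 at 1, 4, 6 and 10 mM, while that of all genes lay between 0.01 and 0.03. The 4 comparisons share the same 3 vehicle libraries, so their results are not independent of each other. TMM factors were 0.9115 to 0.9233 at 10 mM, against 1.008 to 1.016 in the vehicle. How much of the smaller changes at 10 mM rests on this scaling was not tested.

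**Figure D2:**
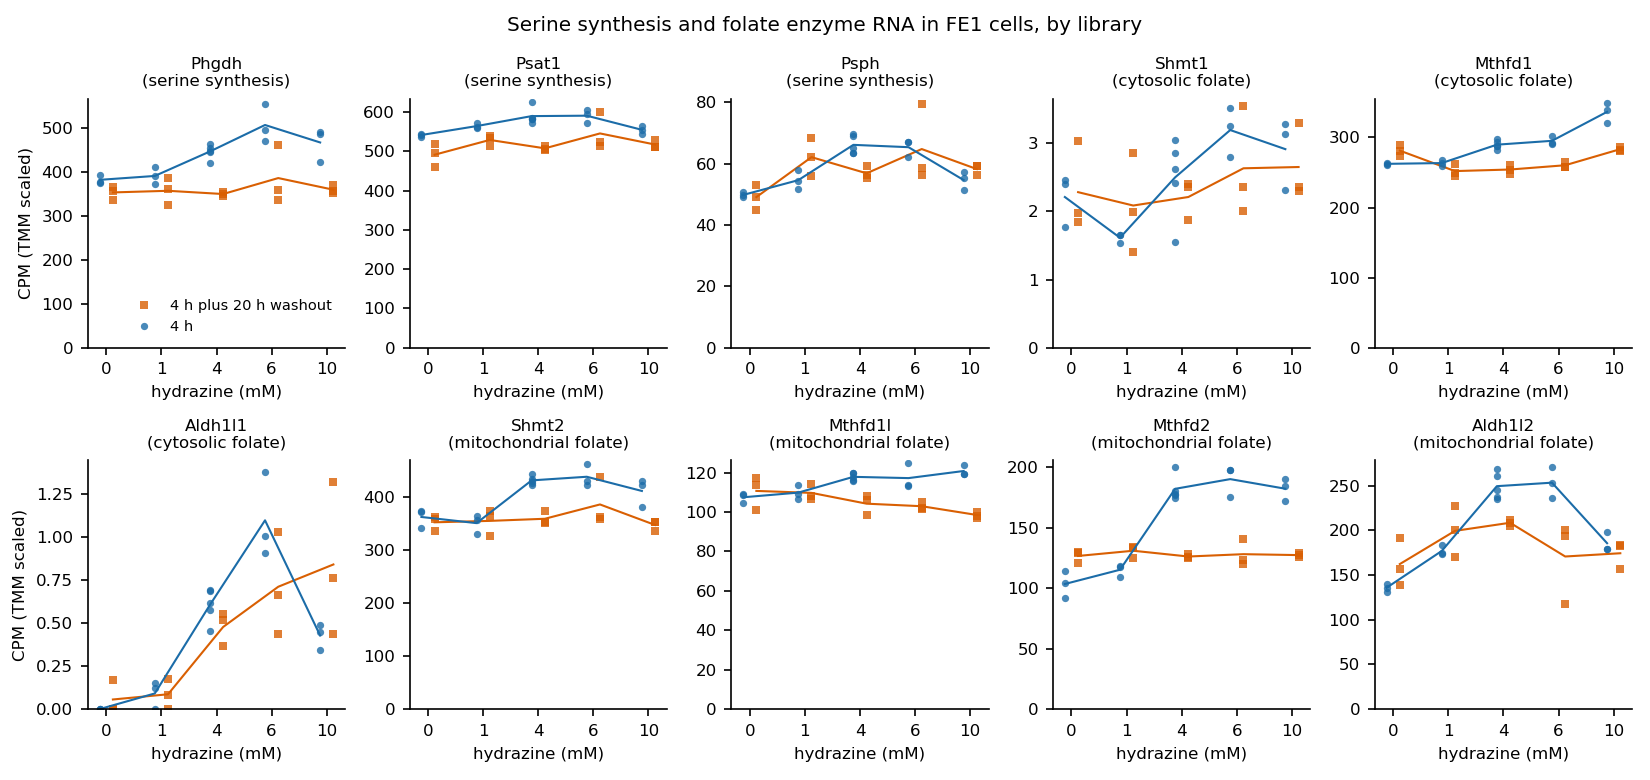
CPM of each member in every library, against hydrazine dose (orange squares after washout, blue circles at 4 h, lines through group means, n = 3 and 5 at 4 mM for 4 h). Mthfd2 and Aldh1l2 rise clear of the vehicle libraries at 4, 6 and 10 mM for 4 h, and for Mthfd2 the washout libraries lie between 119.6 and 141 CPM at every dose.

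In serine synthesis, Phgdh (chr3:98313170-98339990, minus strand, GENCODE M21 on GRCm38) encodes the first and committing dehydrogenase. Its level was 371, 389.6 and 409.7 CPM at 1 mM, 419.5, 445, 446.5, 454.5 and 462.5 CPM at 4 mM, 469, 495 and 554 CPM at 6 mM and 422, 485 and 491 CPM at 10 mM, against 375, 377 and 392 CPM in the vehicle. Every library at 4, 6 and 10 mM lay above every vehicle library, while 1 mM overlapped it. The log2 fold change was 0.23 ± 0.07 at 4 mM, 0.41 ± 0.08 at 6 mM and 0.29 ± 0.08 at 10 mM (adjusted p = 0.0149, 0.000159 and 0.00381). Here and elsewhere ± is the SE after a log2 fold change or a difference of such changes, and the SD after a level or a ratio. Without vehicle library a or b the 4 mM call was lost, with an adjusted p of up to 0.0611 over all alternatives.

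Psat1 (chr19:15904678-15947337, minus strand), the phosphoserine aminotransferase gene, had the smallest log2 fold change among the members called at 4 and 6 mM. It stood at 565 ± 6.03, 590.2 ± 20.5, 591 ± 16.1 and 555 ± 10.0 CPM at 1, 4, 6 and 10 mM, against 542 ± 3.41 CPM in the vehicle (SD, n = 3, 5 at 4 mM). The log2 fold change was 0.12 ± 0.05 at 4 mM and 0.13 ± 0.05 at 6 mM, with adjusted p = 0.0327 and 0.0496. These calls were weak: that at 6 mM was lost in 31 of the 32 fits that leave out a library, and that at 4 mM in 19 of 32. At 10 mM the log2 fold change of 0.04 ± 0.05 did not pass (adjusted p = 0.597), with a 95% interval of -0.07 to 0.14.

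Psph (chr5:129765558-129787449, minus strand) encodes the phosphatase of the last step and had the middle doses highest. Its level was 63.4, 63.5, 65.1, 69.0 and 69.5 CPM at 4 mM, 62.0, 66.9 and 67.1 CPM at 6 mM and 51.2, 55.5 and 57.2 CPM at 10 mM, against 49.1, 49.6 and 50.6 CPM in the vehicle. All libraries at these doses lay above the vehicle, with the 4 and 6 mM libraries also above all 3 at 10 mM. The log2 fold change was 0.41 ± 0.08 at 4 mM and 0.39 ± 0.09 at 6 mM (adjusted p = 0.000158 and 0.000772), and 0.13 ± 0.09 at 10 mM (adjusted p = 0.228). Psph was lower at 10 mM than at 6 mM by a log2 fold change of -0.26 ± 0.09 and than at 4 mM by -0.27 ± 0.08 (adjusted p = 0.0232 and 0.00481). The call between 10 and 6 mM was lost without library a or c of 6 mM or library b of 10 mM. An exon of Psph shares 452 bp with Cct6a, a chaperonin subunit gene on the other strand. Whether counting used strand is not given in the sources used here. Cct6a averaged 6228 counts a library, against 780 for Psph, and its part in the Psph counts was not tested. Cct6a had log2 fold changes of -0.12, -0.06 and 0.32 at 4, 6 and 10 mM, that at 6 mM not called. Its sign was opposite to that of Psph at 4 mM and the same at 10 mM, where Psph was not called.

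In the cytosolic branch, Mthfd1 (chr12:76255298-76319803, plus strand), the trifunctional folate enzyme gene, rose most at the top dose. It stood at 263 ± 3.68, 289.7 ± 5.65, 295 ± 6.38 and 337 ± 14.5 CPM at 1, 4, 6 and 10 mM, against 262 ± 1.02 CPM in the vehicle. The lowest library at 10 mM, 321 CPM, was above the highest at 6 mM, 302.5 CPM. The log2 fold change was 0.14 ± 0.04, 0.17 ± 0.04 and 0.36 ± 0.04 at 4, 6 and 10 mM (adjusted p = 0.00229, 0.00117 and 1.54e-08). With no filter on low counts, edgeR's quasi-likelihood test lost the calls at 4 and 6 mM (adjusted p = 0.0950 and 0.0674). Mthfd1 was higher at 10 mM than at 6 mM by 0.19 ± 0.04 and than at 4 mM by 0.22 ± 0.04 log2 units (adjusted p = 0.000456 and 9.17e-06). It was the only member called higher in either of these comparisons.

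Shmt1 (chr11:60788104-60811718, minus strand), the cytosolic serine hydroxymethyltransferase gene, averaged 32.1 counts a library and did not pass the test at any dose. It stood at 1.62 ± 0.0682, 2.50 ± 0.587, 3.20 ± 0.363 and 2.92 ± 0.524 CPM at 1, 4, 6 and 10 mM, against 2.21 ± 0.389 CPM in the vehicle. The 3 libraries at 1 mM lay below the vehicle libraries. Those at 6 mM, 2.81 to 3.53 CPM, lay above the 1.77 to 2.47 CPM of the vehicle, and the log2 fold change of 0.52 had a 95% interval of -0.01 to 1.06 (adjusted p = 0.114). Shmt1 shares 184 bp of exon with Smcr8 on the other strand, which averaged 869 counts and had log2 fold changes of 0.40 and 0.49 at 6 and 10 mM.

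Aldh1l1 (chr6:90486427-90600203, plus strand), the cytosolic 10-formyl-tetrahydrofolate dehydrogenase gene, was at 0 counts in all 3 vehicle libraries at 4 h. It had 0, 2 and 2 counts at 1 mM, 8, 8, 9, 10 and 10 counts at 4 mM, 11, 13 and 16 counts at 6 mM and 4, 5 and 6 counts at 10 mM. The 4, 6 and 10 mM libraries did not overlap the vehicle. The CPM of the pooled group was 6.78-fold at 4 mM, 12.4-fold at 6 mM and 4.85-fold at 10 mM that of a floor of 3 counts over the vehicle group. The counts of the treated groups enter these folds without their own counting error, so the folds are not lower limits. The gene passed the filter on low counts only through the groups where it is high, so no test of it is given. Its highest level in any library was 1.38 CPM, and counting floors and intervals leave out variation between libraries.

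The mitochondrial branch held the members with the largest changes among those with counts in the vehicle. Mthfd2 (chr6:83305691-83325908, minus strand), the mitochondrial methylene-tetrahydrofolate dehydrogenase and cyclohydrolase gene, had 109, 117 and 118.5 CPM at 1 mM and 175, 177, 178, 180 and 200 CPM at 4 mM. It had 175, 197 and 197.5 CPM at 6 mM and 172, 184 and 189.7 CPM at 10 mM, against 91.4, 104 and 114 CPM in the vehicle. Every library at 4, 6 and 10 mM lay above the highest vehicle library. The log2 fold change was 0.82 ± 0.06, 0.88 ± 0.07 and 0.82 ± 0.07 at 4, 6 and 10 mM (adjusted p = 1.74e-11, 2.04e-11 and 5.81e-11). It kept these calls under all alternatives run, and 6 against 4 mM (0.06 ± 0.06) and 10 against 6 mM (-0.06 ± 0.07) did not pass, with 95% intervals of -0.06 to 0.19 and -0.20 to 0.08. At 1 mM the log2 fold change was 0.16 ± 0.07 (adjusted p = 0.176).

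Aldh1l2 (chr10:83487450-83534140, minus strand), the mitochondrial 10-formyl-tetrahydrofolate dehydrogenase gene, had the other large log2 fold changes at 4 and 6 mM. Its level was 173, 175 and 183 CPM at 1 mM and 235, 238, 246, 261 and 268.5 CPM at 4 mM. It was 236, 254 and 271 CPM at 6 mM and 179, 179.6 and 198 CPM at 10 mM, against 131.5, 136 and 140.2 CPM in the vehicle. Every treated library, 1 mM included, lay above the vehicle. The log2 fold change was 0.38 ± 0.13, 0.88 ± 0.12, 0.90 ± 0.13 and 0.45 ± 0.13 at 1, 4, 6 and 10 mM (adjusted p = 0.0716, 2.06e-06, 4.70e-06 and 0.00662). At 1 mM it passed in fits of the 4 h libraries alone, of the compared groups alone and with DESeq2, and without replicate c of 6 mM after washout (adjusted p = 0.00849). Aldh1l2 was lower at 10 mM than at 6 mM by a log2 fold change of -0.45 ± 0.13 and than at 4 mM by -0.43 ± 0.12 (adjusted p = 0.00891 and 0.00382). It shares 1056 bp of exon with D10Wsu102e on the other strand, which had log2 fold changes of -0.05, -0.10 and 0.11 at 4, 6 and 10 mM, none of them called.

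Shmt2 and Mthfd1l changed less. Shmt2 (chr10:127517123-127522444, minus strand), the mitochondrial serine hydroxymethyltransferase gene, stood at 351 ± 17.9, 431 ± 7.89, 438 ± 21.1 and 411 ± 26.0 CPM at 1, 4, 6 and 10 mM, against 362 ± 17.9 CPM in the vehicle. Its log2 fold change was 0.25 ± 0.06, 0.27 ± 0.07 and 0.18 ± 0.07 at 4, 6 and 10 mM (adjusted p = 0.000953, 0.00108 and 0.0203). The 10 mM call was lost without vehicle library b or 10 mM library a or c, and with no filter on low counts. Mthfd1l (chr10:3973118-4167081, plus strand), the gene of the mitochondrial formyl-tetrahydrofolate synthetase that releases formate, stood at 109.8 ± 3.52, 118 ± 1.81, 117 ± 6.59 and 121 ± 2.69 CPM, against 107.5 ± 2.42 CPM. Its log2 fold change was 0.13 ± 0.05, 0.13 ± 0.05 and 0.17 ± 0.05 at 4, 6 and 10 mM (adjusted p = 0.0254, 0.0590 and 0.00832). The 4 mM call was lost in 4 of the 32 fits without a library. Those left out a vehicle library of 4 h or library d of 4 mM. The 10 mM call was lost without library c of 10 mM. Both calls were also lost with no filter on low counts. That at 4 mM was lost too with replicate letters as a block and with only libraries a to c of its group.

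**Figure D3:**
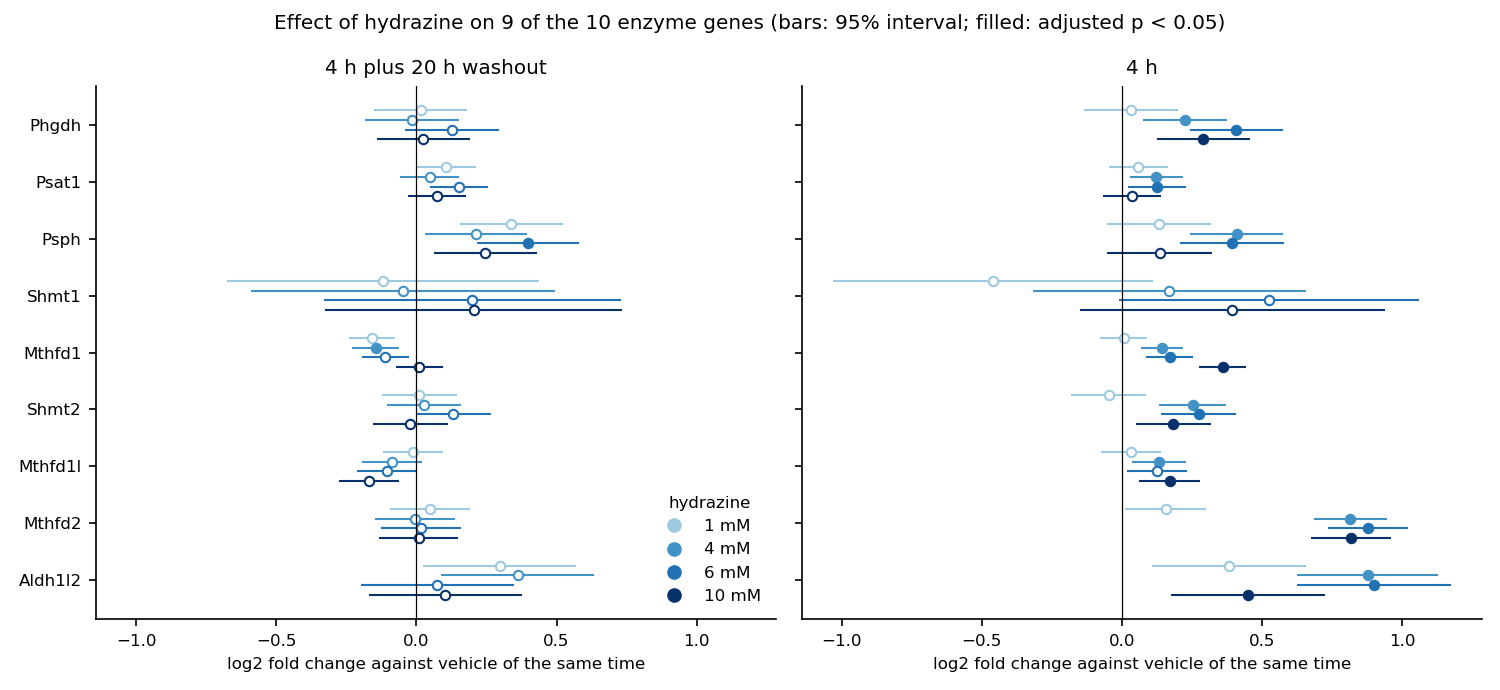
Log2 fold change against the vehicle of the same time, with 95% intervals, for 9 members (Aldh1l1 is left out because its vehicle is at 0 at 4 h), after washout on the left and at 4 h on the right. Filled points passed adjusted p < 0.05. At 4 h Mthfd2 lies between 0.82 and 0.88 at 4, 6 and 10 mM, and after washout its points lie between -0.01 and 0.05.

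Between neighbouring doses the members changed mainly between 1 and 4 mM. At 4 against 1 mM 5 of the 9 members other than Aldh1l1 were higher (Psph, Mthfd1, Shmt2, Mthfd2 and Aldh1l2), where 11.6% of all genes were higher, 13.2% lower and 24.7% called. The Psph call there was lost without library c of 1 mM. At 6 against 4 mM 0 of the 9 passed with edgeR's quasi-likelihood test, 0 with DESeq2 and 1 at an unadjusted p under 0.05, where 8.06% of all genes passed, 4.22% higher and 3.84% lower. At 10 against 6 mM Mthfd1 was higher and Psph and Aldh1l2 were lower, where 37.5% of all genes were called, 19.5% higher and 18% lower. At 10 against 4 mM Mthfd1 was higher and Psph and Aldh1l2 were lower, where 54.3% of all genes were called, 27.4% higher and 27% lower. Aldh1l1 had 15 counts over the 3 libraries at 10 mM and 40 over those at 6 mM. Without replicate c of 6 mM after washout, members called became 7, 1, 4 and 4 of the 9 in these 4 comparisons. The share of all genes called in that fit is not given here, so these counts are no result about the members.

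Across doses at 4 h the mitochondrial and cytosolic genes did not keep their ratio for Mthfd2/Mthfd1 and Mthfd1l/Mthfd1. Counts of the mitochondrial gene were divided by those of its cytosolic paralog within each library, on the log2 scale with 0.5 counts added. The ratio differed across the 5 groups at 4 h for Mthfd2/Mthfd1 (permutation test with 100000 resamples, adjusted p = 8e-05 over 8 tests) and Mthfd1l/Mthfd1 (0.0021), and not detectably for Shmt2/Shmt1 (0.099). The Mthfd2/Mthfd1 ratio was -0.67 ± 0.07 at 4 mM, -0.64 ± 0.09 at 6 mM and -0.89 ± 0.04 at 10 mM, against -1.35 ± 0.16 in the vehicle. Every library at these doses was above every vehicle library. The single-dose comparisons reached the smallest p their sizes allow in an exact two-sided permutation test, 0.0357 for 5 against 3 libraries and 0.1 for 3 against 3, and with adjustment over 32 tests none was below 0.213. The Aldh1l2/Aldh1l1 ratio is given with no test, because Aldh1l1 is at 0 in every vehicle library of 4 h. Tests of that ratio are still among the 8 and the 32, so the adjusted p of the other pairs depends on them. Mthfd1l/Mthfd1 was -1.48 ± 0.04 at 10 mM, against -1.29 ± 0.03 in the vehicle, and all 3 treated libraries were below the vehicle libraries.

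**Figure D4:**
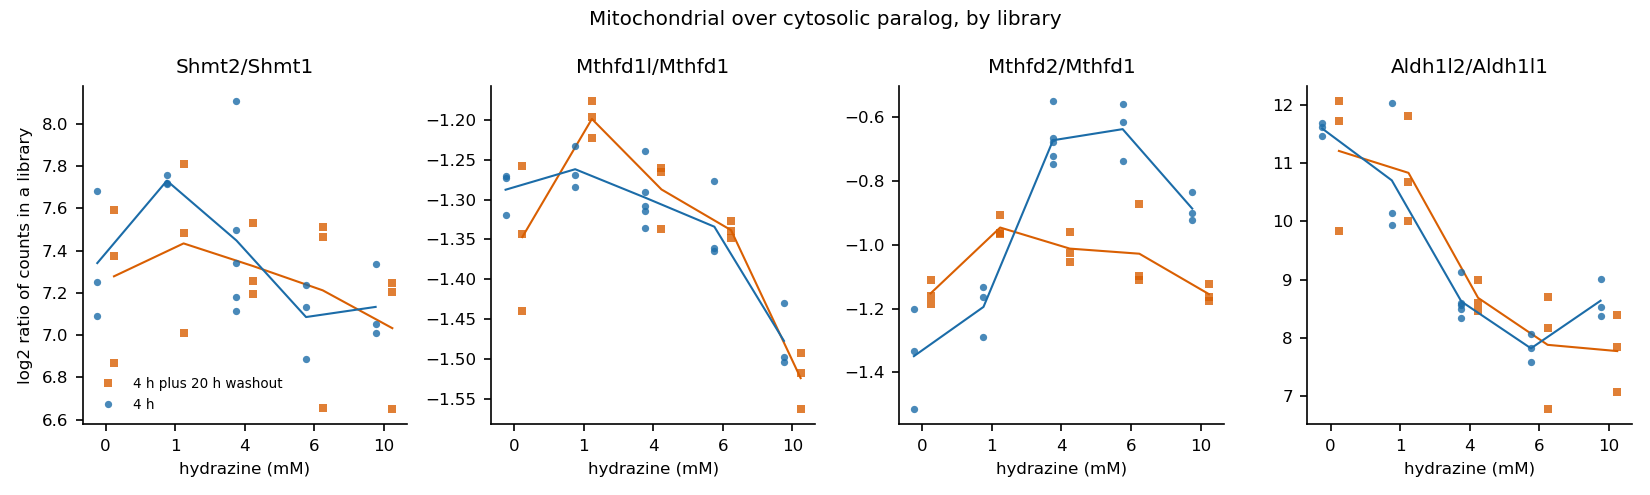
Log2 ratio of counts of the mitochondrial to the cytosolic gene in each library, against hydrazine dose (orange squares after washout, blue circles at 4 h, lines through group means). Mthfd2/Mthfd1 at 4 and 6 mM for 4 h lies between -0.75 and -0.55, above the vehicle libraries at -1.51 to -1.20, and the Aldh1l2/Aldh1l1 values rest on at most 16 counts of Aldh1l1 in a library.

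The Aldh1l2/Aldh1l1 ratio differed from the vehicle by -2.97, -3.78 and -2.96 log2 units at 4, 6 and 10 mM for 4 h, but these sizes rest on the 0.5 counts added where Aldh1l1 is at 0: with 5 counts added the differences were -0.21, -0.87 and -0.51. After washout the ratios differed across groups for Mthfd1l/Mthfd1 (adjusted p = 0.00053) and Mthfd2/Mthfd1 (0.022), with 0.73 for Shmt2/Shmt1. Mthfd1l/Mthfd1 after 10 mM was -1.56, -1.52 and -1.49, against -1.44, -1.34 and -1.26 in the washout vehicle, and all 3 treated libraries lay below the vehicle libraries there too. After 1 mM it went the other way, at -1.22, -1.20 and -1.18, with all 3 libraries above the vehicle.

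After washout at most 1 of the 9 members other than Aldh1l1 passed at a dose, and the share of all genes that passed was also lower than at 4 h. At 1 mM 0 of the 9 members other than Aldh1l1 passed edgeR's quasi-likelihood test, 2 passed with DESeq2 and 4 had an unadjusted p under 0.05, where 0.981% of all genes passed, 0.694% higher and 0.287% lower. At 4 mM Mthfd1 was lower (-0.15 ± 0.04, adjusted p = 0.0412), where 3.48% of all genes passed, 2.31% higher and 1.17% lower. The Mthfd1 call was lost in 6 of the 32 fits without a library. Those left out a 4 mM library, vehicle library b or c, or library b of 10 mM. It was also lost with no filter on low counts, with the replicate block and with only the washout libraries in the fit. Over all alternatives its adjusted p was up to 0.583. At 6 mM Psph was higher (0.40 ± 0.09, adjusted p = 0.00409), where 11.1% passed, 6.43% higher and 4.63% lower. This Psph call was lost with only the washout libraries in the fit and with only the compared groups. At 10 mM 0 of the 9 passed edgeR's quasi-likelihood test, 1 passed with DESeq2 and 2 had an unadjusted p under 0.05, where 5.32% of all genes passed, 3.38% higher and 1.94% lower. Replicate c of 6 mM after washout had 79.4 CPM of Psph, against 56.4 and 58.5 CPM in the other libraries of its group and 45.0, 49.1 and 53.1 CPM in the vehicle, and without it Psph at 6 mM had an adjusted p of 0.0522. Without it, members called became 2, 3, 0 and 2 of the 9 at 1, 4, 6 and 10 mM. Calls over all genes went from 130, 461, 1466 and 705 to 506, 975, 840 and 1208 at these doses, so the gains were not particular to the members. The additional members were Psph (higher at 1, 4 and 10 mM), Aldh1l2 (higher at 4 mM), Mthfd1 (lower at 1 mM) and Mthfd1l (lower at 10 mM). The 3 washout libraries of Psph lay above the vehicle libraries at each of the 4 doses.

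Aldh1l1 was again sparse in the vehicle after washout, with the 2 counts it had there all in library b, and no test of it is given, since it passed the filter only through the groups where it is high. It had 5, 7 and 8 counts at 4 mM, 7, 9 and 14 counts at 6 mM and 7, 12 and 16 counts at 10 mM after washout, against 0, 0 and 2 counts in the vehicle. The groups did not overlap. The pooled CPM was 9.0-fold (95% counting interval 2.2 to 79.6) that of the vehicle at 4 mM, 13.1-fold (3.3 to 113.5) at 6 mM and 15.1-fold (3.9 to 129.3) at 10 mM. These intervals cover counting error of the pooled libraries, not variation between libraries, and are no test against the vehicle. Vehicle library b alone sets the size of these folds: without it the vehicle is at 0.

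The effects after washout and at 4 h were compared directly. At 4 mM the effect was lower after washout than at 4 h for Mthfd1, Mthfd1l, Mthfd2 and Aldh1l2, where 7.82% of all genes were lower, 9.44% higher and 17.3% called. At 6 mM it was lower for the same 4 genes (all genes 12.2% lower, 12.3% higher and 24.4% called), and at 10 mM for Mthfd1, Mthfd1l and Mthfd2 (all genes 18.4% lower, 18% higher and 36.4% called). At 1 mM 0 of the 9 members passed edgeR's quasi-likelihood test and 0 DESeq2, and 1 had an unadjusted p under 0.05, where 1.09% of all genes passed, 0.551% higher and 0.543% lower. Without replicate c of 6 mM after washout, 6 members passed at 4, 6 and 10 mM each, Phgdh and Shmt2 being added at all 3 doses and Aldh1l2 at 10 mM. How many of all genes passed in that fit is not given here, so the gain is no result about the members. Without any library left out, the difference for Phgdh was -0.24 ± 0.11, -0.28 ± 0.12 and -0.26 ± 0.12 (adjusted p = 0.141, 0.0756 and 0.0723).

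Mthfd2 gave the largest of the differences that passed, -0.82 ± 0.09, -0.86 ± 0.10 and -0.81 ± 0.10 at the doses of 4, 6 and 10 mM (log2 scale, adjusted p = 1.94e-07, 1.01e-07 and 1.60e-07). After washout of 10 mM it stood at 126, 127 and 129 CPM, against 120.4, 129 and 130 CPM in the washout vehicle, and the log2 fold change of 0.01 had a 95% interval of -0.13 to 0.15. The vehicle itself differed with time: Mthfd2 was at 126.5 ± 5.29 CPM after washout, against 103 ± 11.5 CPM at 4 h (log2 fold change 0.29 ± 0.07, adjusted p = 0.00892), the 1 member called in that comparison, where 6.89% of all genes were, 3.33% higher and 3.55% lower. Without vehicle library b of either time that call was lost. Aldh1l2 after washout stood at 199 ± 28.8, 209 ± 3.36, 171 ± 46.4 and 174.5 ± 15.0 CPM at 1, 4, 6 and 10 mM, against 162 ± 26.4 CPM in the vehicle. The spread between its washout libraries was wide, with 117 CPM in replicate c of 6 mM against 194 and 201 CPM in its companions, and the -0.52 ± 0.18 difference at 4 mM (adjusted p = 0.0464) was lost in 23 of the 32 fits without a library.

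Mthfd1 and Mthfd1l, the paired formate enzymes, had 1 call between them after washout. Mthfd1 after washout was 252 ± 8.92, 254 ± 5.99, 260.3 ± 3.46 and 283 ± 3.24 CPM at 1, 4, 6 and 10 mM, against 281 ± 7.33 CPM in the vehicle. All libraries at 1, 4 and 6 mM were below all vehicle libraries, though only 4 mM passed the test, and 10 mM overlapped the vehicle. Mthfd1l was 109.7 ± 3.94, 104 ± 5.25, 103 ± 2.09 and 98.5 ± 1.57 CPM, against 111 ± 8.67 CPM, and the 10 mM log2 fold change was -0.17 ± 0.05 (adjusted p = 0.0572). The differences of the washout effect from that at 4 h were -0.29 ± 0.06, -0.28 ± 0.06 and -0.35 ± 0.06 for Mthfd1 and -0.22 ± 0.07, -0.23 ± 0.07 and -0.34 ± 0.07 for Mthfd1l at 4, 6 and 10 mM. Those of Mthfd1l at 4 and 6 mM were each lost in 4 of the 32 fits without a library, among them those without vehicle library b of either time.

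Genes around the pathway were read from lists by function, against all genes tested, of which 26% were higher and 24.1% lower at 10 mM for 4 h with a median log2 fold change of 0.01. Of 9 tested genes of folate supply, 2 were higher and 3 lower at 10 mM for 4 h (median 0.04). Slc25a32, the carrier that brings folate into mitochondria, rose by 0.50 ± 0.09 log2 units and Slc19a1, the reduced folate carrier, by 0.19 ± 0.08. Among the lower genes Fpgs, which adds the glutamate tail of folates, had a log2 fold change of -0.24 ± 0.09. Of 5 tested genes of glycine cleavage and the choline side, Dld, the dihydrolipoamide dehydrogenase gene, was the 1 called, at 0.19 ± 0.06 (list median -0.04). Of 4 users of formyl and methyl groups, Mtfmt, which formylates the mitochondrial initiator methionine, was the 1 called, at -0.78 ± 0.12 (list median -0.01).

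Genes that make thymidylate and purines, not all of which use a one-carbon unit, differed between doses. Of 11 genes of thymidylate and purine synthesis, 1 was higher and 6 were lower at 4 mM (median -0.16, where 19.5% of all genes were higher and 19.1% lower), and 6 were higher and 1 lower at 10 mM (median 0.13), each against the vehicle at 4 h. At 10 mM Impdh2, of guanine nucleotide synthesis, rose by 0.34 ± 0.07, Adss, of adenine nucleotide synthesis, by 0.30 ± 0.05 and Atic, which uses 10-formyl-tetrahydrofolate, by 0.22 ± 0.05 log2 units. Ppat, the first enzyme of purine synthesis, had -0.38 ± 0.07. At 10 against 4 mM 8 of the 11 were higher and 0 lower, in the comparison where 27.4% of all genes were higher and 27% lower.

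Of 11 tested serine carriers and users, 2 were higher and 6 lower at 10 mM (median -0.16). Cth, which makes cysteine by transsulfuration, rose by 0.52 ± 0.18 and Slc1a4, a neutral amino acid carrier that takes serine, by 0.36 ± 0.07 log2 units. Sptlc1, of the enzyme that joins serine to palmitoyl-CoA, had -0.46 ± 0.06, Sfxn2, a sideroflexin of the mitochondrial membrane, -0.40 ± 0.09 and Slc38a1, a glutamine and serine carrier, -0.29 ± 0.09. Of 9 genes of glycolysis around 3-phosphoglycerate, 0 were higher and 7 lower at 10 mM after washout (median -0.50, where 1.94% of all genes were lower), and 7 were higher and 1 lower at 10 mM for 4 h (median 0.28). In the vehicle itself 4 of the 9 were higher after washout than at 4 h and 0 lower, where 3.33% of all genes were higher and 3.55% lower. Hk2, a hexokinase, rose by 2.13 ± 0.16, Pfkl, a phosphofructokinase, by 0.45 ± 0.08 and Gpi1, glucose-6-phosphate isomerase, by 0.38 ± 0.06 log2 units at 4 h, while Pgam1, which carries 3-phosphoglycerate on along glycolysis, had -0.19 ± 0.07.

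Of 16 genes of ATF4 and its known targets, 0, 1 and 0 were higher at 4, 6 and 10 mM after washout, where 2.31%, 6.43% and 3.38% of all genes were higher. At these doses for 4 h 14, 15 and 15 were higher, where 19.5%, 20.3% and 26% of all genes were. The list was written with earlier results of these data known, so it is no independent evidence of direction. At 10 mM Ddit3, which encodes CHOP, rose by 2.73 ± 0.15, Atf3, a stress transcription factor, by 2.20 ± 0.29 and Chac1, a glutathione-degrading enzyme, by 1.91 ± 0.14 log2 units. Slc7a11, the cystine carrier, was the 1 lower, at -0.46 ± 0.07. Mthfd2, at 0.82, 0.88 and 0.82, stood beside list medians of 0.72, 0.94 and 1.04 at 4, 6 and 10 mM, above the median at 4 mM and below it at 6 and 10 mM. Aldh1l2, at 0.88, 0.90 and 0.45, did likewise, and Phgdh and Psat1 were below the median at each of these doses.

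The genes most like 4 of the members across the 10 group means of log2 CPM were named by Pearson's r over 13248 other genes, as a description with no test, since the group means share libraries and dose. For Phgdh they included Slc35f6 (r = 0.982) and Wdr91 (0.979), and for Mthfd2 they were Vegfa (0.980), Kif21b (0.972) and Mars (0.964), the last a methionyl-tRNA synthetase. For Mthfd1 they were Flt1 (0.968), Bicd2 (0.965) and Farp1 (0.958), and for Shmt1, at its low depth, Rrp36 (0.954), Gm12185 (0.942) and Pik3r5 (0.933). Among the members, Phgdh and Shmt2 had r = 0.919 and Mthfd2 and Shmt2 0.889, while Mthfd1 and Aldh1l2 had 0.256.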

How the data were processed

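RNA of FE1 cells was sequenced with a stranded poly-A kit, per the labels' protocols. The authors deposited a table of expected counts per gene, of which 73.9% of values above 0 were whole numbers. The aligner, the counter, its strand setting and the genome build are not given in the sources used here. Of 49585 entries, 97.2% matched a symbol in GENCODE M21, and gene coordinates are that annotation's (GRCm38).

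The expected counts were rounded and tested with edgeR 4.0.16 (limma 3.58.1, R 4.3.3): TMM scaling, a filter on low counts (minimum count 10, minimum total 15), a robust quasi-likelihood fit of all 32 libraries with 1 coefficient per group (22 residual degrees of freedom, biological coefficient of variation 0.0847) and Benjamini-Hochberg adjustment over 13258 genes. All 10 members passed the filter, Aldh1l1 only through the groups where it is high. Genes were called at an adjusted p under 0.05. SE is the log2 fold change over the square root of its F statistic. The script was tested on simulated data. Totals ran from 10560942 to 17086721 counts per library, and no replicate pair agreed within sampling noise (chi-square per degree of freedom at least 2.1).

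Paralog ratios used exact or 100000-resample permutation tests, two-sided. Lengths were the union of exons. The genes named were all members, up to 3 called genes per list and direction at 10 mM for 4 h, and the 3 genes most like Phgdh, Shmt1, Mthfd1 and Mthfd2. A few genes this rule names are not reported here. The members and lists were chosen with earlier results of these data known. Alternatives were DESeq2 1.42.0, its size factors, no filter, no robust estimation, a replicate block, fits of fewer groups, only libraries a to c of 4 mM at 4 h, another length, other pseudocounts and each library left out.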

Additional observations from a re-analysis of the deposited data

Results flagged for a closer look

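At 4 mM for 4 h, the 1 group with enough libraries to look for a library apart from the rest, Psat1 had 626 CPM in replicate d, against 573 to 587 CPM in the other libraries, a gap of 0.748 of the range of the group. Mthfd2 had 200 CPM in replicate c, against 175 to 180 CPM in the others, a gap of 0.791 of the range. Chance alone marks about 1 in 20 such groups, and 10 genes were looked at.

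The dose effect after washout minus that at 4 h differed from 0 with edgeR's quasi-likelihood test for 4 genes at the 4 mM dose, 4 at 6 mM and 3 at 10 mM. For Mthfd1 the difference was -0.29, -0.28 and -0.35 log2 units at 4, 6 and 10 mM, for Mthfd1l -0.22, -0.23 and -0.34, and for Mthfd2 -0.82, -0.86 and -0.81. For Aldh1l2 it was -0.52 and -0.83 at 4 and 6 mM. Each of these was lower after washout.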

How the results depend on the processing

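No result changed direction and stayed called, and an uncalled value that changed sign was counted as unchanged. Mthfd2 and Aldh1l2 at 4, 6 and 10 mM for 4 h, Psph and Shmt2 at 4 and 6 mM, Phgdh at 6 and 10 mM and Mthfd1 at 10 mM kept their calls under all alternatives run. Aldh1l1 passed the filter only through the groups where it is high, so its calls are no support for the stability of the counts and ranges below. Without it the reported fit called 8, 7 and 6 members at 4, 6 and 10 mM for 4 h, and 1, 1 and 0 after washout. All 32 fits without a library called Aldh1l1 at 4, 6 and 10 mM for 4 h and at 6 and 10 mM after washout. The ranges below count it each time there. Counts of members called are given here over all 10, Aldh1l1 included, with the count of the reported fit in brackets. They were 1 at 1 mM for 4 h with DESeq2, with only the same time in the fit and with only the compared groups (0). After washout they were, at 1 mM, 2 with DESeq2 and 1 with its size factors, with no filter and with no robust estimation (0); at 4 mM 1 with DESeq2, with no filter and with the replicate block and 0 with only the same time (2); at 6 mM 1 with only the same time and 0 with only the compared groups (2). They were 1 at 6 against 4 mM with only the same time (0), 2 for the washout difference at 4 mM with no filter and with the replicate block and 2 at 6 mM with no filter (4 each), and 2 between the vehicles with DESeq2 (1). Over all genes, calls at 1 mM for 4 h were 1999 with only the same time and 2088 with only the compared groups (1305). After washout they were, at 1 mM, 226 with DESeq2, 82 with no filter, 1 with the same time and 0 with the compared groups (130; that fit holds 6 libraries). At 4 mM they were 307, 142 and 1429 with no filter, the same time and the compared groups (461), at 6 mM 932, 492 and 1 (1466), and at 10 mM 372 with the same time and 1399 with the compared groups (705). The cause of these shifts was not tested. With a library left out, members called ranged at 1, 4, 6 and 10 mM over 0 to 1, 6 to 9, 7 to 8 and 5 to 7 for 4 h, and over 0 to 2, 0 to 4, 1 to 3 and 1 to 3 after washout. They ranged over 5 to 8 at 4 against 1 mM, 0 to 1 at 6 against 4, 2 to 5 at 10 against 6 and 3 to 4 at 10 against 4, over 0 to 0, 2 to 6, 3 to 6 and 3 to 6 for the washout differences at 1, 4, 6 and 10 mM, and over 0 to 2 between the vehicles. All genes called ranged over 669 to 1997 at 1 mM for 4 h and, after washout, over 3 to 506, 154 to 975, 732 to 2660 and 401 to 1208. For the other comparisons the range over all genes is not given here, so the ranges of members called there are no result about the members. The same holds for counts of members under other settings with no count over all genes beside them. Libraries of the same replicate letter were not visibly more alike: same-letter libraries had a median correlation of 0.003 over 135 pairs and other-letter libraries -0.003. Such medians cannot show whether letters were paired by design, which the labels do not say. Letters d and e occur only at 4 mM for 4 h, so the replicate block also takes these libraries out of that group's comparisons. With the replicate block 6 member calls were lost, Psat1 at 4 and 6 mM and Mthfd1l at 4 mM for 4 h, Mthfd1 at 4 mM after washout, and the washout differences of Mthfd1l and Aldh1l2 at 4 mM. With no filter on low counts 14 member calls were lost, Aldh1l1 at 10 against 6 mM among them. Paralog ratios with 0 counts could not be computed with no pseudocount. Depth limits Shmt1 and Aldh1l1 most, at 32.1 counts a library and at most 16 counts.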
